A study of Mus musculus with 8 samples.

Results

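The genes of major histocompatibility complex (MHC) class I antigen presentation, together with *Cd274*, were followed in 8 RNA-seq libraries of mouse pancreatic ductal adenocarcinoma (PDAC) cells. The set holds 10 genes, chosen by name from the 53465 genes of the count table. The rule used no measured value, but it was written with earlier results of these data known. The members are the class I heavy chains *H2-K1* and *H2-D1*, the light chain *B2m*, the peptide transporter genes *Tap1* and *Tap2*, the loading bridge *Tapbp* (tapasin), the immunoproteasome subunits *Psmb8* and *Psmb9*, the transcriptional activator *Nlrc5*, and *Cd274*, which encodes the checkpoint ligand PD-L1. All 10 were in the table, and 8 passed the filter on low counts (*Psmb8* and *Psmb9* did not).

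Class I molecules display peptides from inside the cell to CD8+ T cells. Proteasomes cut proteins into peptides, TAP carries the peptides into the endoplasmic reticulum, tapasin holds TAP and the empty class I molecule together, and the heavy chain leaves for the surface with β2-microglobulin once a peptide is bound. NLRC5 is drawn to class I promoters by factors bound at their conserved X and Y boxes, and interferon-γ, acting in part through IRF1, raises most of the pathway. PD-L1 on a tumor cell engages PD-1 on the T cell and restrains it, and interferon-γ is a known inducer of this gene as well. TGFβ signals through its type I receptor kinase to SMAD2 and SMAD3, which act in the nucleus with SMAD4.

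B73 and B87 are cell lines, and each derives from the primary pancreatic tumor of 1 mouse that carried *Ptf1a*-Cre, a Cre-dependent *Rosa26* rtTA3-IRES-mKate2 allele and a GFP-linked short hairpin RNA (shRNA) against *Smad4* placed at *Col1a1* and induced by doxycycline (Dox). All libraries shared these alleles, among others. Smad4-off cells (genotype label Smad4OFF) stayed on Dox, and Smad4-on cells had been without Dox for 5 days. Each state was treated for 24 h with 100 pM recombinant TGFβ1 or with SB505124 at 2.5 µM, which blocks the kinase of the type I TGFβ receptor, and this gave 4 groups with 1 culture of each line. There were therefore 2 libraries a group, and every p rests on 2 lines with 1 culture each. With the line in the model, the spread behind a p is what is left after a constant difference between the lines is taken out. Dox and Smad4 state changed together in these libraries, so an effect of Dox or of the hairpin itself cannot be told apart from one of *Smad4*. No library was without both agents, so each comparison of treatments sets TGFβ1 against the inhibitor. An effect of added TGFβ1 cannot be told apart in it from one of SB505124. The cells grew alone in culture, without T cells or added interferon.

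The targeted gene followed the labels. *Smad4* lay between 33.7 and 35.5 CPM (counts scaled to a common library size, here by the TMM method) in the 4 Smad4-off libraries and between 97.4 and 117 CPM in the 4 Smad4-on libraries. Library totals ran from 18389235 to 23440550 counts, and the smallest level taken as detectable, 3 counts, corresponded to 0.125 to 0.162 CPM, a limit that covers counting error only. The keratins *Krt8* (236 to 2410 CPM) and *Krt18* (592 to 2428 CPM) were high in all libraries, whereas the epithelial marker *Epcam* stayed between 0.153 and 2.11 CPM. Of 9 leukocyte markers, 7 had at most 3 counts in every library, *Ptprc* (CD45) among them, and the summed level of the 9 was 1.33 to 6.49 CPM, mostly *Cd68*. For scale, the member *Nlrc5* read 0.051 to 0.998 CPM. Whether leukocytes had a part in the class I and interferon transcripts described here was not tested. The lines differed in their identity markers: the 6 epithelial markers summed to 3870 to 6180 CPM in B73 and to 1170 to 2070 CPM in B87, and the 6 fibroblast markers to 4 to 8.88 CPM in B73 and to 43.9 to 647 CPM in B87, mostly *Col1a1*. The fibroblast markers did not all go the same way. In the edgeR test described below, 3 of the 4 tested were higher in B87, and *Col1a2* was 16.3-fold lower (adjusted p = 0.0017).

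The promoters of the pathway show what its members share in sequence. RefSeq start sites on GRCm38.p6 were found for 8 of the 10 members, and not for *Tap2* or *Nlrc5*. The windows below run from 250 bases before the annotated start to 50 bases from it, 5′ to 3′ along the gene, and are shown for the genes of the class I molecule itself, for *Tap1* and *Tapbp*, whose levels changed in a comparison described further on, and for *Cd274*. Capitals mark matches on either strand to 4 motifs, which do not overlap in these windows. The kappa B letters GGGNNTTCC and the interferon-responsive letters GAAANNGAA are named for NF-κB and for IRF factors. The X2 box was searched as TGACG. The Y box was searched as CCAAT. In this build the windows are chr17:34000284-34000583 on the minus strand (*H2-K1*), chr17:35262844-35263143 on the plus strand (*H2-D1*), chr2:122147437-122147736 on the plus strand (*B2m*), chr17:34187306-34187605 on the plus strand (*Tap1*), chr17:33919228-33919527 on the plus strand (*Tapbp*) and chr19:29367188-29367487 on the plus strand (*Cd274*).
H2-K1: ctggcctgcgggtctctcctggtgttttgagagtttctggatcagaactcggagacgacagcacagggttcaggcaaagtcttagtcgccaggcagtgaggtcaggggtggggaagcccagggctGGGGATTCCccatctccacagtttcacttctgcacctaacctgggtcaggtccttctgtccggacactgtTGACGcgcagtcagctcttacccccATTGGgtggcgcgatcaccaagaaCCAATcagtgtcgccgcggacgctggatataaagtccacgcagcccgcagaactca
H2-D1: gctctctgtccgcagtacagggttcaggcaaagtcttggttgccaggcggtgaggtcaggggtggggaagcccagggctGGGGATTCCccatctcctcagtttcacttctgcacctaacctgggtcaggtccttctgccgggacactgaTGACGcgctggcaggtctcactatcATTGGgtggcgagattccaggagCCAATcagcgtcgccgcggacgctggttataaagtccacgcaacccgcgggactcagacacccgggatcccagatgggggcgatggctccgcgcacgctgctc
B2m: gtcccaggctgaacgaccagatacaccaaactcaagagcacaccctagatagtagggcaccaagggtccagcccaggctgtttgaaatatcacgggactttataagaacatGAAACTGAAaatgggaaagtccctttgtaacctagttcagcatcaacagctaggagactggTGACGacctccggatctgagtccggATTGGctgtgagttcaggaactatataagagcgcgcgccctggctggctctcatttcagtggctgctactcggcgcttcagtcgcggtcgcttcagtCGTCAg
Tap1: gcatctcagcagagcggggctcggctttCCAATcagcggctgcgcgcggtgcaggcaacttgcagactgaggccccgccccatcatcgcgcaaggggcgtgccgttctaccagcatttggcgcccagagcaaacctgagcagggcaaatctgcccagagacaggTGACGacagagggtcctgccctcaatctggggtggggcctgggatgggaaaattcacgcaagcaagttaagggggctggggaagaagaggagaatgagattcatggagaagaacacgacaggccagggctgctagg
Tapbp: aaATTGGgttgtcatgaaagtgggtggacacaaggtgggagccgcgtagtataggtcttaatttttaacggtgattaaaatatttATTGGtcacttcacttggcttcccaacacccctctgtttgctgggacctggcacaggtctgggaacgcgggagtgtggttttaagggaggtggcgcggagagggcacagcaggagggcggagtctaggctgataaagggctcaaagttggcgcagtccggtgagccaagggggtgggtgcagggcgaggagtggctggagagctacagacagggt
Cd274: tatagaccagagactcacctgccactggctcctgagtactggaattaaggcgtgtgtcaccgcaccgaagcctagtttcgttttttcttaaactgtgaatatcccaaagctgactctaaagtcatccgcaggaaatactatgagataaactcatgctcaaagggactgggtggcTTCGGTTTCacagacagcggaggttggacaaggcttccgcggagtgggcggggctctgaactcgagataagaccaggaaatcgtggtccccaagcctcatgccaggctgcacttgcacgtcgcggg

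The 3 genes of the class I molecule carried TGACG followed by ATTGG, the Y box read on the other strand, before the start site. In each of the 3, the first letter of ATTGG lay 25 bases after the first letter of TGACG. That spacing was noticed in these sequences and then counted, and it occurred in 31 of 32851 promoter windows (0.0944%). TGACG was found in 5 of the 8 member promoters (20.8% of all windows) and CCAAT in 6 of 8 (37.4%). The kappa B letters were present in the 2 heavy chain genes, upstream of TGACG, and in 5.82% of all windows. The interferon-responsive letters GAAANNGAA were found in *B2m* and *Cd274* (8.56% of all windows). Only this spelling was searched. A window without it, such as those of the 2 heavy chain genes, may still hold an interferon-responsive site spelled otherwise. The STAT letters TTCNNNGAA were found in *Psmb8* alone among the members (8.30%). The palindromic SMAD letters GTCTAGAC were in none of the 8 windows (0.213% of all). The shorter SMAD letters CAGAC, which are not capitalised above, were in 5 of 8 against 49.6% of all windows. *Tapbp* carried CCAAT as its only capitalised letters. Such matches describe letters in a short window and not binding.

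**Figure D1:**
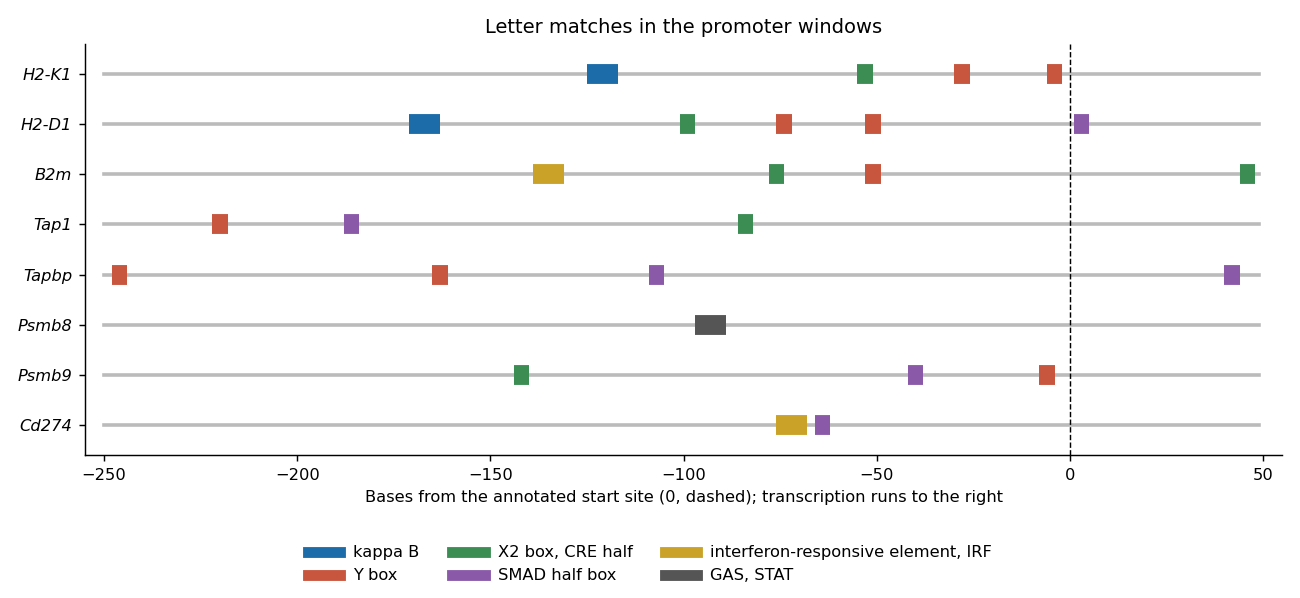
Positions of letter matches in the promoter windows of the 8 members with a RefSeq start site; the horizontal axis gives bases from the start site (dashed line at 0), each grey line is a window and each coloured block a match on either strand. *H2-K1*, *H2-D1* and *B2m* each show an X2 box block followed by a Y box block whose start lies 25 bases further on, and the kappa B block stands upstream of them in the 2 heavy chain genes.

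In the genome, 7 of the 10 members lie on chromosome 17. *Psmb9*, *Tap1*, *Psmb8* and *Tap2* sit side by side within 34334 bases (chr17:34181988-34216321, GRCm38), with 495 bases between *Tap1* and *Psmb8*. *Psmb9* and *Tap1* face away from each other and overlap by 212 bases, so their promoter windows share most of their sequence read from opposite strands. *Tapbp* (chr17:33915899-33929288) and *H2-K1* (chr17:33996017-34000333) lie on one side of that cluster and *H2-D1* (chr17:35262730-35267499) on the other. *B2m* is on chromosome 2, *Nlrc5* on chromosome 8 and *Cd274* on chromosome 19. The class I family has many near copies, and of all stretches of 75 bases, the read length, in the transcripts of *H2-D1* and *H2-K1*, 5.40% and 3.10% also occurred in transcripts of another gene. The table's *Tapbp* gene starts upstream of the RefSeq start and overlaps *Zbtb22* on the same strand by 3421 bases. *Zbtb22* had 656 to 909 counts, and how reads in that stretch were assigned is not given in the sources used here.

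Expressed per length of transcript, the members spanned about 4 orders of magnitude. *B2m* was highest, with a median of 296 CPM per kilobase of exon over the 8 libraries (225 to 336), followed by *H2-D1* at 75.4 (69.2 to 100.9), *H2-K1* at 47.0 (30.4 to 55.9) and *Tapbp* at 16.7 (11.8 to 28.4). The ranges of these 4 genes did not overlap. The transporter genes stood far below the molecules they serve, with *Tap1* at 0.714 CPM per kilobase (0.317 to 1.38) and *Tap2* at 0.486 (0.108 to 0.713). *Cd274*, at 0.676 (0.254 to 1.02), overlapped both. *Nlrc5* had a median of 0.0633 CPM per kilobase (0.00601 to 0.118), and *Psmb9* and *Psmb8* medians of 0.0265 and 0.0250 with libraries at 0 counts. The third inducible proteasome subunit, *Psmb10*, which is not a member, had a median of 7.45 CPM per kilobase, so the immunoproteasome genes were unequal in level.

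**Figure D2:**
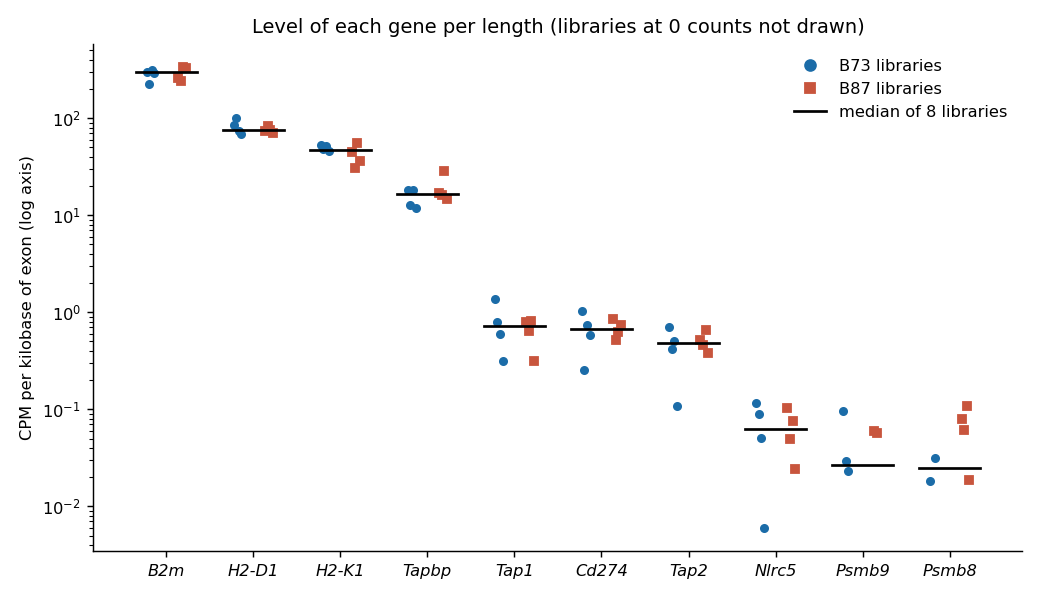
CPM per kilobase of exon (log axis) for each member in each library, circles for B73 and squares for B87, with a black bar at the median of the 8 libraries; libraries at 0 counts are not drawn. *B2m* lies at a median of 296 and *Psmb8* at 0.0250, and the ranges of *B2m*, *H2-D1*, *H2-K1* and *Tapbp* do not overlap.

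The comparison of Smad4 on with Smad4 off under TGFβ1 asks what *Smad4* restoration does while its pathway is active. In it, the loading gene *Tapbp* fell with Smad4 on, and the other 7 tested members did not pass. All 8 tested members had a negative log2 difference, with a median of -0.61, against a median of -0.01 over all 14301 tested genes, of which 51.1% were negative. With edgeR's quasi-likelihood test and Benjamini-Hochberg adjustment over all tested genes, 1 of the 8 passed at an adjusted p under 0.05, in a comparison where 6.80% of all genes passed (3.28% as lower, and 3.12% in either direction when over 2-fold was required as well). DESeq2 with the line in the model likewise passed 1 member, and 5 members had an unadjusted edgeR p under 0.05.

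The member that passed was *Tapbp*. In TGFβ1-treated B73 cells it read 59.4 CPM with Smad4 off and 38.8 CPM with Smad4 on, and in B87 cells 93.7 and 48.2 CPM. Both Smad4-on values lay below both Smad4-off values. The fall was 1.74-fold (log2 difference -0.80 ± 0.16 SE, adjusted p = 0.0366). *Zbtb22*, which overlaps it, had a log2 difference of -0.08 ± 0.10 (adjusted p = 0.661). The call was lost without either Smad4-off or either Smad4-on TGFβ1 library and without either Smad4-on SB505124 library. Each such fit leaves 1 library in a group, and fewer of all tested genes passed in it as well, so the loss was not particular to *Tapbp*. The log2 difference was smallest, -0.56, without the B87 Smad4-off TGFβ1 library.

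*Tap1*, which forms the transporter with *Tap2*, showed a larger difference at a much lower level. It read 3.30 CPM in Smad4-off and 1.74 CPM in Smad4-on cells of B73, and 4.48 and 1.73 CPM in B87. The groups did not overlap, and the log2 difference of -1.17 ± 0.34 missed the threshold (adjusted p = 0.0900). *Tap2* read 1.93 and 0.408 CPM in B73 and 2.49 and 1.43 CPM in B87 (log2 difference -1.29 ± 0.49, adjusted p = 0.169). Again the Smad4-on libraries were the lower ones in both lines.

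*Nlrc5*, the activator of the class I promoters, was close to the detection limit. In TGFβ1-treated cells it had 10 counts (Smad4 off) and 1 count (Smad4 on) in B73, and 13 and 4 counts in B87. The fitted log2 difference was -2.01 with a 95% interval of -3.68 to -0.35 (adjusted p = 0.145). The immunoproteasome genes were sparser still. *Psmb8* had 2 and 0 counts in B73 and 6 and 1 in B87, and *Psmb9* had 2 and 0 counts in B73 and 0 in both B87 libraries. No difference could be assessed for these 2 genes at this depth.

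The heavy and light chains did not pass. *H2-K1* read 134 CPM (Smad4 off) and 119 CPM (Smad4 on) in B73 and 146 and 94.3 CPM in B87, a log2 difference of -0.41 ± 0.17 with an interval of -0.81 to -0.02 (unadjusted p = 0.0428, adjusted p = 0.194). *H2-D1* read 192 and 178 CPM in B73 and 197 and 182 CPM in B87, with an interval of -0.36 to 0.14 for the log2 difference. *B2m* read 269 and 253 CPM in B73 and 289 and 280 CPM in B87, with an interval of -0.32 to 0.18. *Cd274* read 2.66 and 2.09 CPM in B73 and 2.24 and 2.70 CPM in B87, so the lines went opposite ways, and its log2 difference of -0.05 had an interval of -0.87 to 0.77.

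**Figure D3:**
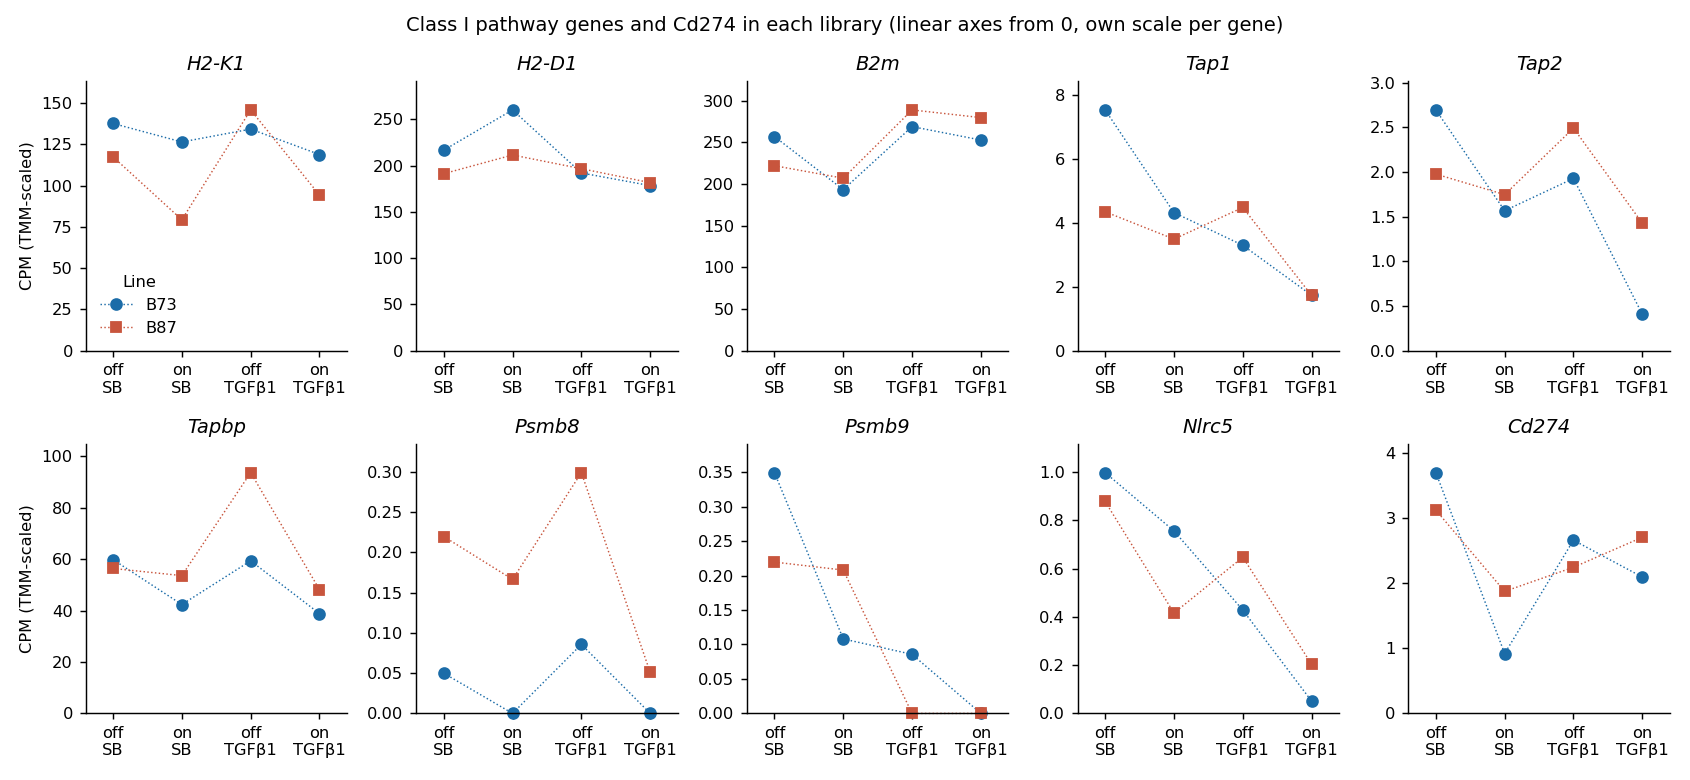
TMM-scaled CPM of the 10 members in every library, 1 panel a gene with its own linear axis from 0; circles are B73, squares B87, and the dotted lines join the libraries of a line in the order Smad4 off and on under SB505124, then Smad4 off and on under TGFβ1. Every tested member other than *Cd274* has its lower TGFβ1 value in the Smad4-on library of each line.

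Some markers of other cell types differed in the same comparison. The 4 endothelial markers summed to 7.24 to 26.1 CPM in Smad4-off and 3.42 to 4.79 CPM in Smad4-on TGFβ1 libraries, mostly through *Kdr*. The 6 fibroblast markers summed to 6.43 to 184 CPM and 8.88 to 647 CPM, mostly through *Col1a1*, the locus that also holds the hairpin. Of the 4 fibroblast markers tested, 1 passed as higher and 2 had a negative log2 difference. The 9 leukocyte markers summed to 2.19 to 3.04 CPM in Smad4-off and to 1.33 to 1.48 CPM in Smad4-on TGFβ1 libraries, mostly through *Cd68* (log2 difference -0.93 ± 0.36, unadjusted p = 0.0369, adjusted p = 0.18). *Pecam1* and *Tek* were low throughout, *Tek* at 3 counts or fewer and *Lum* at 0. The part of these markers in the members' values was not tested.

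Under SB505124, which blocks the kinase of the type I TGFβ receptor, the same contrast asks what changes with Smad4 state without added TGFβ1. How far signalling to SMAD4 was blocked in these libraries was not tested. No member passed in edgeR (0 of 8, against 1.59% of all genes), nor in DESeq2 with or without the line, and 2 members had an unadjusted edgeR p under 0.05. The median log2 difference of the 8 was -0.42, against 0.00 over all tested genes, and 7 of the 8 were negative. *Cd274* showed the largest value: it had 74 counts (Smad4 off) and 17 counts (Smad4 on) in B73, and 71 and 45 counts in B87, which are 3.69 and 0.919 CPM and 3.12 and 1.87 CPM. Both Smad4-on libraries were below both Smad4-off libraries. The log2 difference was -1.28 ± 0.36 (unadjusted p = 0.00892, adjusted p = 0.181), and it was -1.90 within B73 and -0.71 within B87.

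Among the other members under SB505124, *H2-D1* was the one with a positive value. It read 217 and 260 CPM in B73 and 191 and 212 CPM in B87 (log2 difference 0.21 ± 0.10, adjusted p = 0.477). *B2m* read 257 and 193 CPM in B73 and 222 and 207 CPM in B87 (-0.26 ± 0.11, adjusted p = 0.366). *Tapbp* read 59.9 and 42.4 CPM in B73 and 56.4 and 53.6 CPM in B87, so the difference seen in B73 was not seen at that size in B87. *Tap1* read 7.54 and 4.32 CPM and 4.35 and 3.49 CPM, *Tap2* 2.70 and 1.57 CPM and 1.98 and 1.75 CPM. *Nlrc5* had 20 and 14 counts in B73 and 20 and 10 counts in B87. *H2-K1* read 138 and 126 CPM in B73 and 117 and 79.3 CPM in B87.

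**Figure D4:**
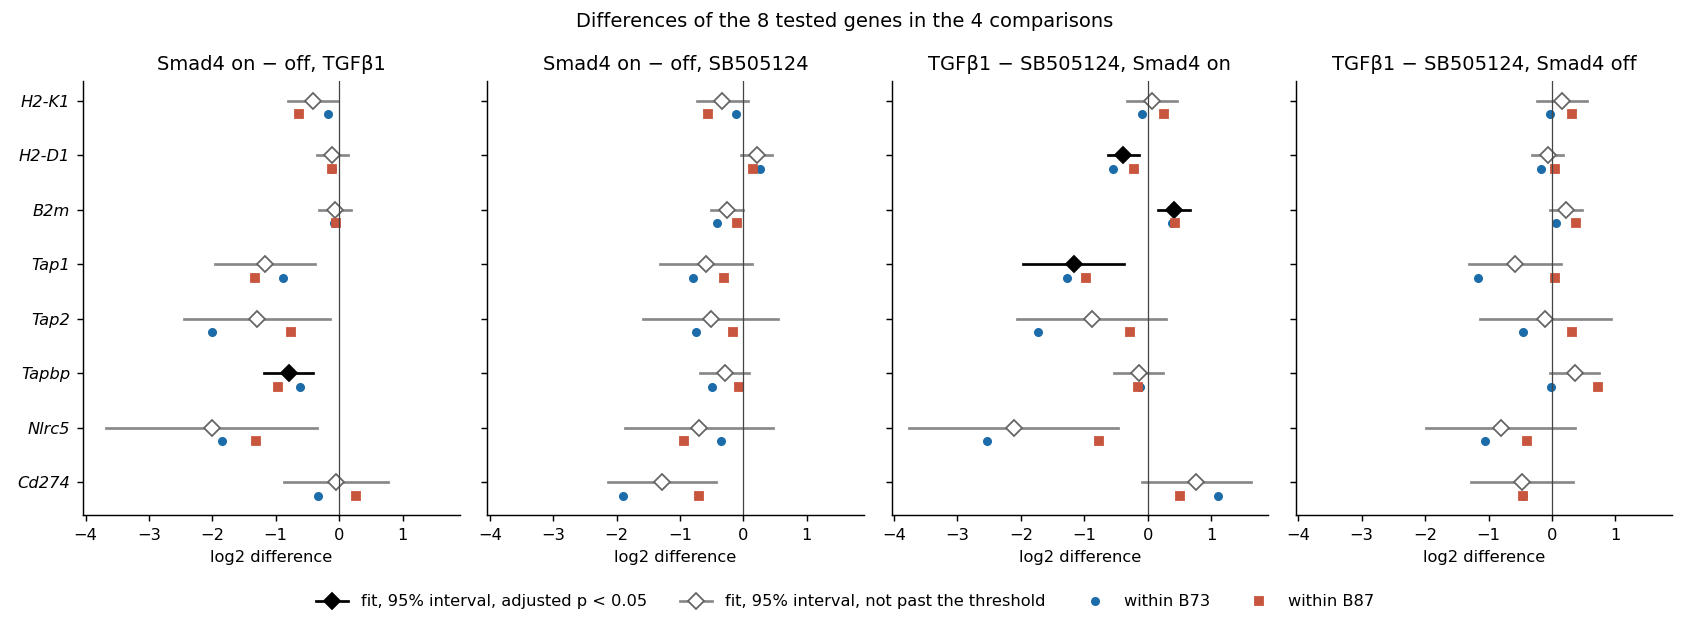
Log2 differences of the 8 tested members in 4 comparisons, with diamonds for the edgeR fit over both lines, bars for its 95% interval (black where the adjusted p is under 0.05), circles for B73 alone and squares for B87 alone. Within a line, the log2 CPM had 2 added as a prior count, so its values can lie nearer 0 than the fit for low genes. *Tapbp* passes with Smad4 on under TGFβ1, and *H2-D1*, *B2m* and *Tap1* pass between treatments in Smad4-on cells.

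TGFβ1 was then compared with SB505124 within each Smad4 state. In Smad4-on cells, 3 of 8 members passed, against 33.2% of all tested genes (13.9% when over 2-fold was required as well), and they did not go the same way. *Tap1* fell 2.24-fold, with 4.32 CPM under SB505124 and 1.74 CPM under TGFβ1 in B73 and 3.49 and 1.73 CPM in B87 (log2 difference -1.16 ± 0.34, adjusted p = 0.0362). *H2-D1* fell 1.31-fold, from 260 to 178 CPM and from 212 to 182 CPM (-0.38 ± 0.10, adjusted p = 0.0295). *B2m* rose 1.33-fold, from 193 to 253 CPM and from 207 to 280 CPM (0.41 ± 0.11, adjusted p = 0.0236). For each of these 3 genes, the 2 libraries of a treatment lay on one side of the 2 libraries of the other.

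The remaining members did not pass in this comparison. *Nlrc5* had 14 and 10 counts under SB505124 and 1 and 4 counts under TGFβ1 (log2 difference -2.12 ± 0.70, adjusted p = 0.0559). *Cd274* had 17 and 45 counts under SB505124 and 41 and 53 counts under TGFβ1 (0.77 ± 0.37, adjusted p = 0.152). *Psmb9* had 2 and 5 counts under SB505124 and 0 in both TGFβ1 libraries, which lie at or near the limit of 3 counts and give no fold. *Tapbp* (-0.14 ± 0.16) and *H2-K1* (0.07 ± 0.17) had intervals that included 0. Fewer members passed when any Smad4-on library was left out. Each such fit leaves 1 library in a group, and fewer of all tested genes passed in it as well. In the same comparison, 2 of the 6 epithelial markers, *Cdh1* (log2 difference -2.31, adjusted p = 0.00936) and *Krt19* (-2.33, adjusted p = 0.000454), fell and the other 4 did not pass (-0.39 for *Epcam*, -0.19 for *Krt7*, 0.20 for *Krt8* and 0.52 for *Krt18*). Of the 4 tested fibroblast markers, *Col1a1* rose (2.43, adjusted p = 0.000409) and no other passed. Of the 4, 2 were negative, and their median log2 difference was -0.015. Of the 2 tested endothelial markers, *Cdh5* rose (3.79, adjusted p = 0.00177) and the other did not pass. The leukocyte markers summed to 2.37 to 3.51 CPM under SB505124 and to 1.33 to 1.48 CPM under TGFβ1, with *Cd68* at -1.01 (adjusted p = 0.0692). The part of these markers in the members' values was not tested.

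In Smad4-off cells, none of the 8 members passed between TGFβ1 and SB505124 with edgeR or with DESeq2, with or without the line, and none had an unadjusted edgeR p under 0.05, against 13.2% of all genes passing. *Tapbp* read 59.9 CPM under SB505124 and 59.4 CPM under TGFβ1 in B73, and 56.4 and 93.7 CPM in B87 (log2 difference 0.36 ± 0.16, adjusted p = 0.199). *B2m* read 257 and 269 CPM in B73 and 222 and 289 CPM in B87 (0.22 ± 0.11, adjusted p = 0.225). *Tap1* read 7.54 and 3.30 CPM in B73 but 4.35 and 4.48 CPM in B87. *Psmb9* had 7 counts under SB505124 and 2 under TGFβ1 in B73, and 5 and 0 counts in B87.

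Whether the effect of Smad4 state differed between treatments was tested as an interaction. No member passed with edgeR or DESeq2, where 0.196% of all genes did with edgeR, and 1 member had an unadjusted edgeR p under 0.05. That member was *Cd274*, with an interaction of 1.23 ± 0.50 on the log2 scale (unadjusted p = 0.0420, rank 1332 of 14301 genes, adjusted p = 0.451). Its Smad4-on values were below the Smad4-off values under SB505124 in both lines and not under TGFβ1 in both. *H2-D1* was higher with Smad4 on under SB505124 and lower under TGFβ1 in both lines (interaction -0.32 ± 0.15, adjusted p = 0.518). *Tapbp* had an interaction of -0.50 ± 0.23 (adjusted p = 0.517). That *Tapbp* passed under TGFβ1 and not under SB505124 therefore does not show that its response differed between the treatments.

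The lines were compared next. No member passed between B87 and B73 with edgeR (0 of 8) or with DESeq2, where 18.6% of all genes passed with edgeR. In that edgeR test 1 member, *Tapbp*, had an unadjusted p under 0.05 (log2 difference 0.31 ± 0.12, rank 3910 of 14301 genes, adjusted p = 0.12). The *Tapbp* difference passed, with an adjusted p of 0.0258, when either Smad4-off SB505124 library was left out. Further tests asked whether the lines differed in their change from SB505124 to TGFβ1, or in their change with Smad4 state. No member passed in the former (0 of 8 and 0% of all genes), with 1 member at an unadjusted p under 0.05. In the latter, 0 of 8 passed, against 0.406% of all genes, with 1 member at an unadjusted p under 0.05. DESeq2 passed none in either. The member with the lowest p in the former was *H2-D1* (difference between lines 0.27 ± 0.10, rank 873 of 14301 genes, adjusted p = 0.582). The member with the lowest p in the latter was *H2-K1* (difference between lines -0.45 ± 0.17, rank 1070 of 14301 genes, adjusted p = 0.445). Its log2 difference for Smad4 on was -0.12 under SB505124 and -0.18 under TGFβ1 in B73, and -0.57 and -0.63 in B87.

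The other genes of the pathway were described from lists. Of 16 further genes of peptide processing and loading, all tested, 3 passed as lower with Smad4 on under TGFβ1 and 0 as higher, and the median of the 16 was 0.04. The 3 were the proteasome activator genes *Psme1* (log2 difference -0.51 ± 0.09, adjusted p = 0.0225) and *Psme2* (-0.52 ± 0.10, adjusted p = 0.0311), and *Erap1*, which trims peptides in the endoplasmic reticulum (-0.51 ± 0.12, adjusted p = 0.0486). *Psme1* read 58.3 and 40.7 CPM in B73 and 66.4 and 46.8 CPM in B87, so both Smad4-on values were lower. Of the *Psme2* stretches, 22.9% also occur in transcripts of *Psme2b*, so its counts are less certain. *Psmb10* read 12.6 and 10.4 CPM in B73 and 18.1 and 10.9 CPM in B87 (-0.51 ± 0.16, adjusted p = 0.110).

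Of 12 other class I genes, 8 were tested and 2 passed as lower with Smad4 on under TGFβ1, against 3.28% of all genes. *H2-Q4*, a Qa-region class I gene, read 5.57 CPM with Smad4 off and 1.79 CPM with Smad4 on in B73 and 9.07 and 2.29 CPM in B87, a 3.53-fold fall (log2 difference -1.82 ± 0.24, adjusted p = 0.00895), with 7.02% of its stretches shared with other genes. *Hfe*, a class I-like regulator of iron uptake that also pairs with β2-microglobulin, went from 4.54 to 1.38 CPM and from 6.13 to 2.75 CPM (-1.39 ± 0.25, adjusted p = 0.0242). *H2-Q6* and *H2-Q7* had at most 2 counts in any library. MHC class II transcripts were at or near the detection limit: of 10 class II genes, 1 was tested (*H2-DMa*, 0.308 to 0.919 CPM) and 8, namely *H2-Aa*, *H2-Ab1*, *H2-Eb1*, *H2-DMb2*, *H2-Oa*, *H2-Ob*, *Cd74* and the activator *Ciita*, had at most 3 counts in every library.

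Regulators of the class I genes and the receptors of interferon followed. Of 18 transcriptional regulators, 2 passed as lower with Smad4 on under TGFβ1, where 3.28% of all genes passed as lower and 6.80% in either direction. These were *Irf1*, a transcription factor downstream of interferon-γ (43.2 and 29.1 CPM in B73, 70.2 and 34.8 CPM in B87, log2 difference -0.80 ± 0.13, adjusted p = 0.0161), and *Ezh2*, the histone methyltransferase of the Polycomb repressive complex (-0.54 ± 0.08, adjusted p = 0.0125). Of 10 tested genes among 17 interferon ligands, receptors and signalling genes, 3 passed as lower and 0 as higher, and all 3 encode receptor chains. *Ifngr1* and *Ifngr2*, the chains of the interferon-γ receptor, fell 2.12-fold (adjusted p = 0.0150) and 1.99-fold (adjusted p = 0.0115), with *Ifngr1* at 226 and 121 CPM in B73 and 201 and 84.2 CPM in B87. *Ifnlr1*, a receptor chain for interferon-λ, fell 2.78-fold (adjusted p = 0.0129). The ligand genes *Ifnb1*, *Ifng*, *Ifna2*, *Ifna4*, *Ifnl2* and *Ifnl3* had 0 counts in all 8 libraries, a limit of 0.125 to 0.162 CPM, and *Ifnk* at most 1.

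Of 20 interferon-stimulated genes, 12 were tested. With Smad4 on under TGFβ1, 11 of them were negative, as were 51.1% of all genes (median -1.11, against -0.01 for all genes). Of the 12, 2 passed as lower, against 3.28% of all genes. The 2 were *Bst2* (tetherin), at 18.3 and 9.54 CPM in B73 and 18.2 and 7.29 CPM in B87 (log2 difference -1.13 ± 0.19, adjusted p = 0.0179), and the GTPase gene *Irgm1*, at 47.7 and 27.5 CPM and 65.4 and 33.4 CPM (-0.89 ± 0.19, adjusted p = 0.0396). Of 14 checkpoint ligand genes, 11 were tested and 2 passed as higher, as did 504 of all 14301 tested genes. They were *Pvr*, a ligand of TIGIT and CD96 (117 and 202 CPM in B73, 164 and 257 CPM in B87, 0.72 ± 0.10, adjusted p = 0.00956), and *Nectin3* (0.67 ± 0.13, adjusted p = 0.0317). *Pdcd1lg2*, which encodes the other PD-1 ligand, and *Cd86* had at most 1 count in any library. Of 5 tested genes for ligands of the NK receptor NKG2D, *Ulbp1* passed as higher (0.47 ± 0.10, adjusted p = 0.0376). Under SB505124, where 1.59% of all tested genes passed with edgeR, none of the 81 tested genes of these 8 lists did. That count lies near the share of all genes. Of the 81, 10 had an unadjusted edgeR p under 0.05, and 3 passed with DESeq2. Over all 14301 genes, DESeq2 with the line passed 307 as higher and 184 as lower. In edgeR, the unadjusted p of *B2m*, 0.0422, ranked 1648.

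**Figure D5:**
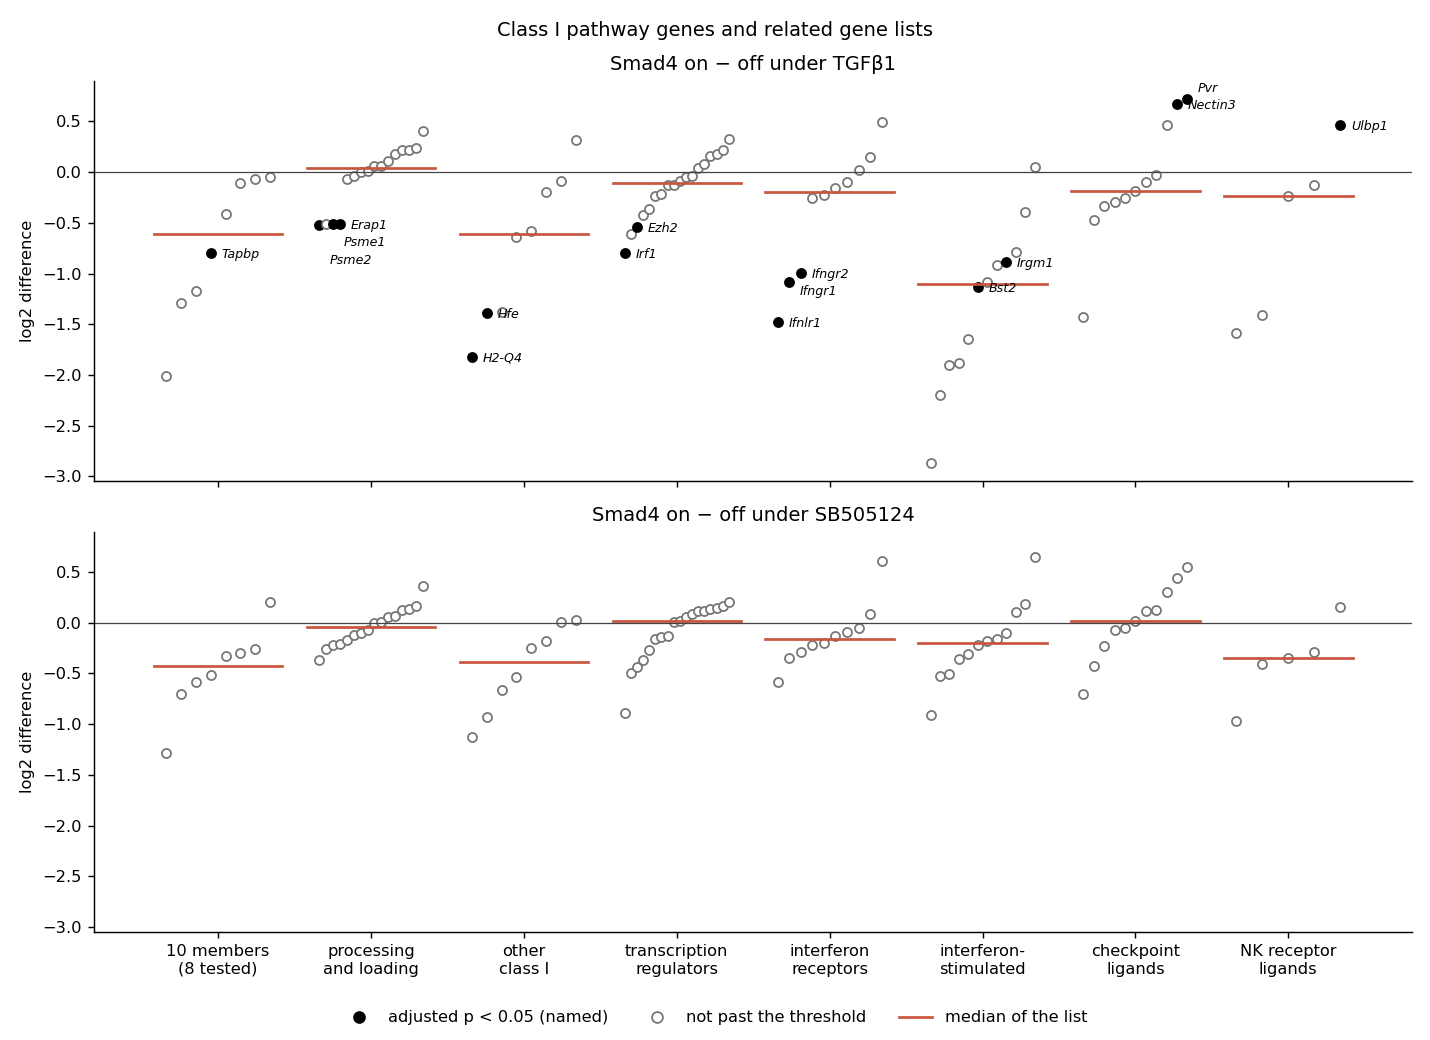
Log2 differences of Smad4 on against Smad4 off under TGFβ1 (top) and SB505124 (bottom) for the tested members and 7 related gene lists, 1 point a gene, filled and named where the adjusted p was under 0.05, with a red bar at each list's median. Under TGFβ1 the named genes of processing, class I, regulation and interferon response lie below 0 and *Pvr*, *Nectin3* and *Ulbp1* above it, and under SB505124 no gene of these lists is filled.

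TGFβ1 against SB505124 gave each list its own values, and it shares libraries with the comparisons of Smad4 state. In Smad4-on cells, where 33.2% of all genes passed, 6 of the 12 tested interferon-stimulated genes passed as lower and 0 as higher with edgeR, and DESeq2 with the line passed 4. *Ifit1* read 0.486 CPM under SB505124 and 0.204 CPM under TGFβ1 in B73, and 3.70 and 0.663 CPM in B87 (adjusted p = 0.00753), *Irf7* read 1.73 and 0.459 CPM and 1.96 and 0.561 CPM (adjusted p = 0.0398), and *Iigp1* had 17 and 4 counts under SB505124 and 0 under TGFβ1 in both lines. Of the receptor and signalling genes, 4 passed as lower, led by *Ifnlr1* (log2 difference -2.27 ± 0.22, adjusted p = 0.000537), *Ifngr2* (-1.25 ± 0.14, adjusted p = 0.00106) and the kinase gene *Tyk2* (-0.72 ± 0.11, adjusted p = 0.00370). *Hfe* fell as well (-2.06 ± 0.25, adjusted p = 0.00127). Of the 18 regulators, 3 passed as higher and 2 as lower, a share below that of all genes. The largest of these changes were those of the NF-κB gene *Nfkb2* (1.06 ± 0.13, adjusted p = 0.00135), *Stat2* (-0.75 ± 0.17, adjusted p = 0.0154) and *Stat3* (0.46 ± 0.11, adjusted p = 0.0211).

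Rises and falls given next are those of TGFβ1 relative to SB505124. Among surface ligands in Smad4-on cells, *Pvr* was 3.91-fold higher under TGFβ1, with 55.5 CPM under SB505124 and 202 CPM under TGFβ1 in B73 and 61.1 and 257 CPM in B87 (adjusted p = 8.1e-05). *Ulbp1* rose 1.95-fold (adjusted p = 0.000681), while *Lgals9*, the gene of galectin-9, fell 2.34-fold (adjusted p = 0.00230) and *Cmtm4*, known for stabilising PD-L1 protein, fell by 0.59 ± 0.13 on the log2 scale (adjusted p = 0.0130). The constitutive proteasome subunit gene *Psmb7*, the counterpart of *Psmb10*, rose 1.30-fold (adjusted p = 0.0130). In Smad4-off cells, *Pvr* (log2 difference 1.02 ± 0.10, adjusted p = 0.00189), *Ulbp1* (0.65 ± 0.10, adjusted p = 0.00787), *Nfkb2* (0.68 ± 0.13, adjusted p = 0.0168), *Irf1* (0.53 ± 0.13, adjusted p = 0.0363), *Rela* (0.38 ± 0.09, adjusted p = 0.0318) and *Psme2* (0.39 ± 0.10, adjusted p = 0.0477) rose. *Ifnlr1* (-1.14 ± 0.20, adjusted p = 0.0125), *Hfe* (-0.92 ± 0.23, adjusted p = 0.0405), *Ifngr2* (-0.54 ± 0.14, adjusted p = 0.0466) and *Tyk2* (-0.48 ± 0.11, adjusted p = 0.0364) fell. None of the 12 tested interferon-stimulated genes passed with edgeR or DESeq2, with 5 at an unadjusted edgeR p under 0.05. Of all 14301 tested genes, 13.2% passed with edgeR in this comparison, and the unadjusted edgeR p of *Tapbp*, 0.062, ranked 4456.

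Between the lines, where 18.6% of all genes passed, the counts varied from list to list: 1 of 16 genes of processing and loading passed with edgeR, and of the 12 tested interferon-stimulated genes 6 passed as higher in B87 and 1 as lower. They included *Ifit1*, 4.84-fold higher (adjusted p = 0.00164), *Cxcl10*, 3.79-fold higher (adjusted p = 0.0286), and *Iigp1*, which was lower (0 to 17 counts in B73 and 0 to 4 counts in B87, adjusted p = 0.0206). The costimulatory ligand gene *Cd80* was 6.84-fold higher in B87 (2.87 to 3.78 CPM in B73 and 16.7 to 30.0 CPM in B87, adjusted p = 4.85e-05). The NKG2D ligand genes *Raet1e* (3.91-fold, adjusted p = 0.00346) and *H60b* (2.77-fold, adjusted p = 0.00117) were lower in B87. *Erap1* (1.73-fold higher, adjusted p = 0.00108), *Stat3* (1.40-fold higher, adjusted p = 0.00691) and the kinase gene *Jak2* (log2 difference -0.68 ± 0.07, adjusted p = 0.00125) also passed. The part of the lines' epithelial and fibroblast marker levels, given above, in these differences was not tested.

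The members split by how they varied together over the 8 libraries once each line was centred. *Tap1*, *Tap2* and *Nlrc5* varied most closely (Pearson's r of 0.86 for *Tap1* with *Tap2*, 0.94 for *Tap1* with *Nlrc5* and 0.90 for *Tap2* with *Nlrc5*), and *H2-K1* followed *Tapbp* (r = 0.78). *H2-D1* and *B2m* went opposite ways (r = -0.70), and *Cd274* went with *B2m* (r = 0.62) and against *H2-D1* (r = -0.63), with r of 0.05 (*Nlrc5*) to 0.33 (*Tapbp*) for the other tested members. Among 11094 genes, those most like the mean of the 7 tested members other than *Cd274* were *H2-T23* (the Qa-1 gene, r = 0.98), *Irgm1*, *9430038I01Rik*, *Stk11ip* and *Ephx2* (r of 0.97 to 0.98). *H2-T23* read 15.6 and 9.70 CPM with Smad4 off and on under TGFβ1 in B73, and 14.4 and 9.48 CPM in B87. Those most like *Cd274* were *Yaf2*, *Tnip2*, *Cep19*, *Zfp563* and *Slc25a30* (r of 0.94 to 0.97). These values are a description over 8 libraries that share 2 lines and 4 conditions, and the highest of 11094 correlations over so few libraries are high by selection.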

How the data were processed

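RNA from 8 cultures was sequenced by the authors as stranded poly(A) libraries with single-end reads of 75 bases. Per the submitters' processing notes and the methods, they trimmed reads with Trimmomatic 0.36, aligned them with STAR 2.5.3a to GRCm38 (mm10) and counted them per gene with featureCounts 1.6.3, and deposited raw counts, 1 column a library. Their strand and multi-mapping settings are not given in the sources used here. The deposited table also gives a length per gene, used for CPM per kilobase. The members and gene lists were chosen with earlier results of these data known. All members were named. From each list, the text names up to 3 passing genes with the largest change per comparison and the genes at 3 counts or fewer throughout.

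Counts were tested with edgeR 4.0.16 (TMM, filterByExpr by group, quasi-likelihood F-test) over all 14301 genes that passed the filter, in 1 fit with group and line. The study used DESeq2 and names no covariate, and the line was added because each went through all 4 conditions. Standard errors are the log2 difference divided by the square root of F. The pairing comes from the line in each title, and the deviations of paired libraries from their group means correlated over genes with r of 0.642 to 0.774 in 6 pairs of groups. On simulated counts, the fit recovered most changed genes, but false calls ran above the nominal rate. Alternatives were DESeq2 1.42.0 (line in the model or left out), edgeR with no line, DESeq2 size factors, other filters, the study's additional rule of over 2-fold, and leaving out each library. Likeness was Pearson's r on log2 CPM centred within line, for genes averaging 1 or more on that scale. Shared stretches used GENCODE M21 transcripts.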

Additional observations from a re-analysis of the deposited data

How the results depend on the processing

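The member counts depended on the line in the model and on the filter. Without the line (no replicate block), edgeR passed 0 members with Smad4 on against off under TGFβ1, where 1 passed with the block, and 0 between treatments in Smad4-on cells, where 3 passed. Over all genes that fit passed 21 as higher and 22 as lower in the former comparison, against 504 and 469. DESeq2 without the line passed 1 and 2 members. Over all 14301 genes it passed 388 as higher and 282 as lower in the former comparison, and 1570 and 1606 in the latter. With no filter on low counts, 4 members passed under TGFβ1, 1 under SB505124 (*Cd274*, adjusted p = 0.0237) and 2 between the lines, and the cause was not tested. Of all 27770 genes in that setting, 863 passed as higher and 1024 as lower under TGFβ1. Under SB505124 the counts were 507 and 285, and between the lines 1596 and 1761. Requiring over 2-fold left 0 members under TGFβ1 and 1 between treatments in Smad4-on cells (*Tap1*). Leaving out each library in turn gave 0 to 1 members under TGFβ1, 0 to 3 between treatments in Smad4-on cells and 0 to 1 between the lines. DESeq2 size factors and DESeq2 with the line changed no side of the threshold for the 8 tested members, nor did at least 10 counts in every library for the 6 it left (*Tap2* and *Nlrc5* dropped out). No member that passed changed sign under any of these alternatives, and values within each line also kept it. CPM moved by -7.74% to 5.28% on raw totals. The block changed no other member count. Among calls for genes of the other lists, edgeR without the block lost 46 and kept 15, and repeats with 1 library left out lost 209 and kept 543. *Psmb8*, *Psmb9* and *Nlrc5* were limited by depth.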
